A study of Rattus norvegicus with 24 samples.

Results

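Heat shock proteins and chaperones of the rat retina were followed through 10 genes: Hspa1b, Hspa2, Hspa4, Hspa5, Hspa8, Hspd1, Hspe1, Hsp90ab1, Hspb6 and Dnajb9. Their probes were found through the RefSeq accession that the array files give for a probe. Of the 10 genes, 6 had a probe (Hspa2, Hspa4, Hspa5, Hspe1, Hspb6 and Dnajb9), with 7 probes in all of the 33849 rat probes, since Hspe1 had 2. Hspa1b, Hspa8, Hspd1 and Hsp90ab1 were not analysed here. Retinas came from male Sprague Dawley rats 1 or 3 months after streptozotocin (STZ), a toxin of the insulin-producing cells of the pancreas that makes rats diabetic, or after vehicle alone. There were 4 groups of 6 arrays, namely STZ and control rats at each of the 2 times, and the rats of both times were raised and killed separately. No exogenous insulin was given, and rats entered the STZ groups by their blood glucose. Each array was a CodeLink whole genome array, a slide of oligonucleotide probes read in 1 color. Levels of different probes are not compared, because a spot's brightness also depends on its probe.

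Chaperones bind unfolded or partly folded proteins and keep them from aggregating. HSP70 proteins (the Hspa genes) clamp onto exposed hydrophobic stretches in a cycle of ATP hydrolysis that J-domain proteins such as Dnajb9 speed up and nucleotide exchange factors such as Hspa4 reset. Hspe1 is the lid of the mitochondrial chaperonin whose barrel is Hspd1, and small heat shock proteins such as Hspb6 hold unfolded proteins without ATP. Cytosolic chaperones are induced by heat shock factors that bind heat shock elements, whereas Hspa5 and Dnajb9, which work in the endoplasmic reticulum (ER), are induced by the unfolded protein response. Retinal photoreceptors make large amounts of membrane protein and depend on both systems.

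Every value below is a scaled intensity, that is, the background-subtracted intensity of the spot divided by the median of the rat probes on its array, or a difference of STZ minus control on the log2 scale. Before scaling, the arrays had a median intensity between 124 and 359.6 at 1 month, between 149 and 308 in the 3 month control group and between 125 and 164 in the 3 month STZ group. The spread of an array (interquartile range of log2 values) was 3.36 to 3.67 at 1 month, 1.48 to 2.23 in the 3 month control group and 2.07 to 2.70 in the 3 month STZ group. Of the 22025 probes tested, the median difference was 0.01 at 1 month and 0.44 at 3 months, and at 3 months it climbed with brightness from 0.07 in the dimmest of 4 equal classes of probes to 0.61 in the brightest. After quantile normalization, which gives all arrays the same distribution, the 3 month median was 0.16. The share of called probes that were higher in STZ was 93.4% with median scaling, 77.8% after quantile normalization and 67.5% after cyclic loess normalization. The control array 3M Control replicate 2 stood apart, with a median correlation of 0.842 with its group, where the others had 0.957 to 0.973. Sag, the arrestin of rod photoreceptors, had a scaled intensity of 77.0 to 221 over all arrays, which fits the tissue label. In whole retina, fewer cells of a type and less RNA per cell cannot be told apart.

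At 3 months, 4 of the 6 member genes were higher in STZ retina (Hspa2, Hspa5, Hspe1 and Dnajb9), none was lower, and Hspa4 and Hspb6 did not pass the test, although Hspa5 and Hspe1 turned to small negative differences after quantile normalization. The 6 differences had a median of 0.56, against 0.44 over all tested probes. A call required a Benjamini-Hochberg adjusted p under 0.05 over all probes in limma, a linear model with moderated variances, and a difference of at least 1.2-fold. That rule called 50.5% of all tested probes higher and 3.55% lower at 3 months, and among named genes it called 56.0% higher. After quantile normalization 1 member was higher (Hspa2) and 1 lower (Hspa4), beside 24.6% and 7.03% of all probes. At 1 month none of the 6 passed the test in limma (0 with an unadjusted p under 0.05, and 0 by the methods' test), where 0.00908% of all probes did. Of the 22025 tested probes, the methods' test called 262 at 1 month without adjustment and 0 with it. At neither time did the STZ and control arrays of any member separate completely, as they did for 0.545% of probes at 1 month and 10.2% at 3 months.

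**Figure D1:**
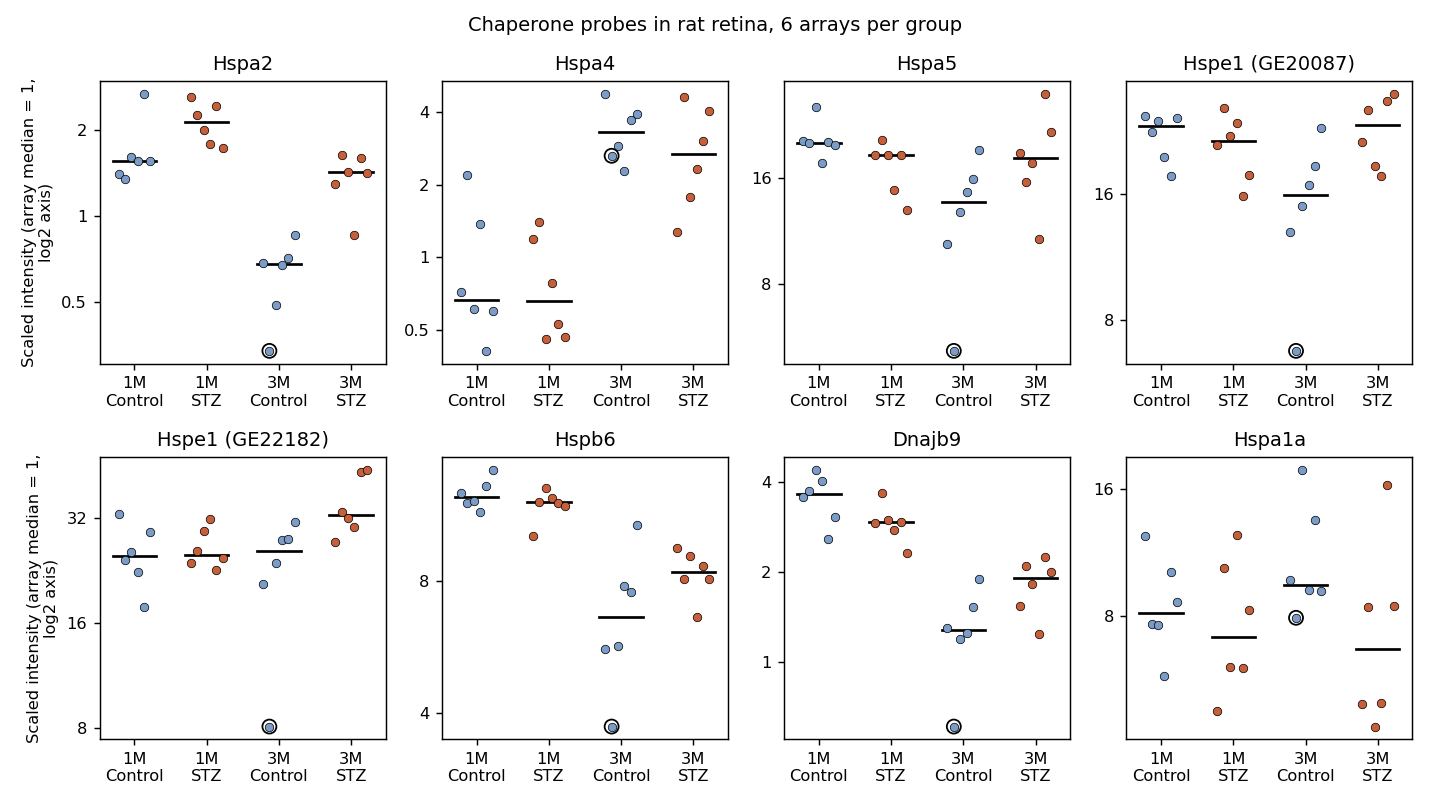
Scaled intensity (log2 axis, array median of 1) of the 7 member probes and Hspa1a on each array of the 4 groups. Points are arrays, bars are group medians and the ring marks 3M Control replicate 2. The reader should see that Hspa2 has 5 of 6 STZ arrays above all control arrays at 3 months, and that the ringed array is the lowest 3 month control of 6 of the 7 member probes.

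Hspa2 is the HSP70 isoform best known from the testis, where it is needed for the meiosis of male germ cells. Its scaled intensity at 3 months was 0.338 to 0.862 (median 0.682) in control retina and 0.860 to 1.64 (median 1.43) in STZ retina. Of the STZ arrays, 5 of 6 lay above every control array, and the sixth, 3M STZ replicate 4, lay just under the highest control. The difference was 1.16 ± 0.20 (SE, n = 6 arrays per group), or 2.24-fold, with a limma adjusted p of 0.000248. This was 0.72 above the median of all tested probes, and higher than 98.0% of them. At 1 month, Hspa2 was 1.35 to 2.68 (median 1.56) in control and 1.73 to 2.62 (median 2.13) in STZ retina. There, 5 of 6 control arrays lay below every STZ array, and the sixth, 1M Control replicate 5, lay above all of them. That difference was 0.36 ± 0.20, and it did not pass the test (limma adjusted p = 0.9999, 95% confidence interval -0.06 to 0.78).

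Hspa2 was the only member called higher at 3 months with median scaling and also after quantile normalization (1.62 ± 0.24, limma adjusted p = 3e-05), quantile normalization within each time point (1.14) and cyclic loess normalization (0.85). With any 1 array left out it stayed called, between 1.00 without 3M Control replicate 2 and 1.29 without 3M STZ replicate 4. The call was lost when the spread of each array was added as a covariate (0.60 ± 0.31, limma adjusted p = 0.569). In that setting 0 of the 22025 tested probes were called at 3 months, and so no member. Its probe was in the second of the 4 brightness classes, and 22 of 24 arrays were above the limit used for testing (0.554). Those under it were 3M Control replicate 2 (0.338) and 3M Control replicate 3 (0.487), in the group against which the 3 month difference was taken. Over the 4 group means, the tested gene with the pattern most like that of Hspa2 was Cyp4a3, a fatty acid hydroxylase, at a root-mean-square distance of 0.06 (log2, after quantile normalization, of 2806 genes).

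The promoter of Hspa2 is shown because it belongs to the member with the largest difference. It covers 250 bases before to 50 after the start of the gene in RefSeq's annotation of GRCr8 (chr6:100864192-100864491, plus strand), and capitals mark the only match to the short heat shock element, GAANNTTC or TTCNNGAA on either strand, which begins at position -64.
Hspa2: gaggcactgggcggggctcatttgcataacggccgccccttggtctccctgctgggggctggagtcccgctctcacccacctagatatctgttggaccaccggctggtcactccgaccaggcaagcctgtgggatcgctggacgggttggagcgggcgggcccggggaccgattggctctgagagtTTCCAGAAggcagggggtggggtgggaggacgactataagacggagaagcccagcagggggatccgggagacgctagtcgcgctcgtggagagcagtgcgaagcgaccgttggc
Of 33469 rat promoter windows of this length, 15.9% hold that 8-base form. The full element of 3 units, GAANNTTC with NNGAA after it or TTCNNGAA with NNTTC after it, was not found in this window, and 0.798% of all windows hold it. TATAAA, which 14.2% of windows hold, was not found there either.

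Hspa5 (BiP or GRP78) is the HSP70 of the ER lumen and restrains the sensors of the unfolded protein response. At 3 months its scaled intensity was 5.17 to 19.2 (median 13.7) in control and 10.8 to 27.8 (median 18.3) in STZ retina. Only 2 of 6 STZ arrays lay above every control array. The difference was 0.58 ± 0.23, or 1.49-fold, with a limma adjusted p of 0.0390, but it turned to -0.05 after quantile normalization (limma adjusted p = 0.834) and to -0.06 after cyclic loess normalization. Relative to the median of all probes it was 0.13, and the probe was in the brightest class, whose own median difference was 0.61.

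The Hspa5 call was lost without any of 7 arrays, left out 1 at a time. It was also lost with each array's 5th percentile subtracted (0.52, limma adjusted p = 0.0926) and with no filter on dim probes (0.58, limma adjusted p = 0.0513). The lowest control value was that of 3M Control replicate 2, and without it the difference was 0.33 and was not called. It was also not called without 3M Control replicate 1 (0.53) or 3 (0.59), or without 3M STZ replicate 1 (0.56), 3 (0.58), 5 (0.45) or 6 (0.52). At 1 month, Hspa5 was 17.7 to 25.6 (median 20.2) in control and 13.0 to 20.6 (median 18.6) in STZ retina. The groups overlapped, and the difference of -0.26 ± 0.23 did not pass the test (limma adjusted p = 0.9999). The gene with the pattern most like that of Hspa5 was Slc25a3, the mitochondrial phosphate carrier, at a distance of 0.02.

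The Hspa5 promoter is shown because it holds the ER stress element through which the unfolded protein response acts on this gene. In the window on GRCr8 (chr3:38452766-38453065, plus strand), capitals mark the match to the ER stress element, which is CCAAT, any 9 bases and CCACG, and which begins at position -43.
Hspa5: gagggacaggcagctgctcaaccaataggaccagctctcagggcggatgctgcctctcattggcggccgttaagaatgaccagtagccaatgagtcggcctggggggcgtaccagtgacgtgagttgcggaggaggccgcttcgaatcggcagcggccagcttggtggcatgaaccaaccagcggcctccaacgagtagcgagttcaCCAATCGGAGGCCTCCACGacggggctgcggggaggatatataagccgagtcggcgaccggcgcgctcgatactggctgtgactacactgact
Only 0.0657% of all rat windows, 22 of 33469, hold this element on either strand. The windows of the other members with a probe, Dnajb9 included, held no match.

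Dnajb9 (ERdj4) is a J-domain co-chaperone of Hspa5 in the ER. At 3 months its scaled intensity was 0.609 to 1.90 (median 1.28) in control and 1.24 to 2.25 (median 1.92) in STZ retina. Of the STZ arrays, 3 of 6 lay above every control array and 5 of 6 above the control median. The difference was 0.54 ± 0.20, or 1.46-fold, with a limma adjusted p of 0.0272. It was 0.10 above the median of all probes. After quantile normalization it was 0.42 ± 0.23 and was not called (limma adjusted p = 0.176), and after cyclic loess normalization it was 0.06.

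Here too the lowest control value came from 3M Control replicate 2, without which the Dnajb9 difference was 0.34 and was not called. The call was also lost without 3M STZ replicate 2 (0.50), 5 (0.48) or 6 (0.51). At 1 month, Dnajb9 was 2.58 to 4.41 (median 3.66) in control and 2.33 to 3.69 (median 2.94) in STZ retina. In that comparison 3 control arrays lay above every STZ array, and the difference of -0.27 ± 0.20 did not pass the test (limma adjusted p = 0.9999). Myt1l, a neuronal transcription factor, had the most similar pattern over the group means, at a distance of 0.03.

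Hspa4 (APG-2) is an HSP110 protein that exchanges nucleotides on HSP70. At 3 months its scaled intensity was 2.28 to 4.77 (median 3.31) in control and 1.27 to 4.62 (median 2.69) in STZ retina. The arrays were mixed, with 2 STZ arrays below every control array and 1 control array above every STZ array. The difference of -0.33 ± 0.36 did not pass the test (limma adjusted p = 0.425, 95% confidence interval -1.07 to 0.40). After quantile normalization it was -0.81 ± 0.31 and was called lower (limma adjusted p = 0.0468), and after cyclic loess normalization it was -0.71 and was not called (limma adjusted p = 0.174). At 1 month, Hspa4 was 0.409 to 2.20 (median 0.665) in control and 0.459 to 1.41 (median 0.656) in STZ retina, with a difference of -0.19 ± 0.36 that did not pass the test (limma adjusted p = 0.9999).

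Hspa4 had the widest spread among the member probes at 1 month, with a log2 SD of 0.90 in control and 0.70 in STZ retina, and at 3 months the SDs were 0.40 and 0.71. On this scale every 3 month control array was above every 1 month array for this probe, whereas for Hspa2 every 3 month control array was below every 1 month array. The times were run on rats raised separately and on arrays of different spread, so age and array set cannot be told apart and no test between the times was made. Slc6a6, the taurine transporter, had the pattern most like that of Hspa4, at a distance of 0.08.

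A probe whose accession RefSeq now names Hspa1a, an inducible HSP70 with a nearly identical copy in Hspa1b, was not counted as a member. Hspa1a and Hspa1b lie next to each other, and which of them the spot measures is uncertain. At 3 months its scaled intensity was 7.92 to 17.8 (median 9.47) in control and 4.37 to 16.4 (median 6.69) in STZ retina, with 3 of 6 STZ arrays below every control array. The difference of -0.61 ± 0.28 did not pass the test (limma adjusted p = 0.0652), but it was called without 3M STZ replicate 5 (-0.85, limma adjusted p = 0.0115). After quantile normalization it was -1.23 ± 0.29 and was called lower (limma adjusted p = 0.00261). At 1 month it was 5.77 to 12.4 (median 8.14) in control and 4.76 to 12.5 (median 7.14) in STZ retina, a difference of -0.16 ± 0.28 that did not pass the test (limma adjusted p = 0.9999).

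Hspe1 (HSP10), the lid of the mitochondrial chaperonin, was measured by 2 probes. At 3 months, probe GE22182 was 8.05 to 31.0 (median 25.6) in control and 27.2 to 43.9 (median 32.5) in STZ retina, and probe GE20087 was 6.73 to 23.1 (median 15.9) and 17.8 to 27.9 (median 23.4). By GE22182, 4 of 6 STZ arrays lay above every control array, and by GE20087, 3 of 6. Both were called, with a difference of 0.69 ± 0.23 for GE22182 (1.61-fold, limma adjusted p = 0.0152) and 0.64 ± 0.21 for GE20087 (1.55-fold, limma adjusted p = 0.0134). In the brightest class of probes, to which both belong, 76.3% of probes were called higher. After quantile normalization both differences turned to -0.05, with limma adjusted p of 0.862 and 0.826.

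Without 3M Control replicate 2, the lowest control array of both Hspe1 probes, the 3 month differences were 0.41 and 0.41, and both were still called. At 1 month, GE22182 was 17.8 to 32.8 (median 24.8) in control and 22.7 to 31.8 (median 25.1) in STZ retina, and GE20087 was 17.7 to 24.6 (median 23.3) and 15.9 to 25.8 (median 21.5). The groups overlapped, with differences of 0.07 ± 0.23 and -0.09 ± 0.21 that did not pass the test (limma adjusted p = 0.9999 for both). The sign for GE22182 turned to -0.0049 after quantile normalization. Acot7, an acyl-CoA thioesterase, had the pattern most like that of Hspe1 (by GE22182), at a distance of 0.01.

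Hspe1 and Hspd1 are neighbours read in opposite directions, and their promoter windows share 211 bases. The Hspe1 window (GRCr8, chr9:64084077-64084376, plus strand) is shown because it is the only one, among members with a probe, that holds the full heat shock element. Capitals mark 2 overlapping matches, from positions -65 and -60.
Hspe1: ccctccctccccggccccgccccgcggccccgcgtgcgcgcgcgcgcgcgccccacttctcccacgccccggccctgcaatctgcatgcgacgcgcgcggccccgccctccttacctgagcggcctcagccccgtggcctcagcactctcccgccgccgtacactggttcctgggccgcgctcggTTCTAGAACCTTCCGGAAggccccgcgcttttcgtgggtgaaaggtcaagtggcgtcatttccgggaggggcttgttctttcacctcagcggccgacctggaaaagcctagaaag
The same run lies in the Hspd1 window on the other strand, and 2 more matches were found in the window of Hspa8. These 3 of the 9 members with a window held the element, against 0.798% of all windows. The window of Hspb6 held 2 matches to the short form and 1 to TATAAA, and the windows of Hspa4, Hsp90ab1 and Dnajb9 held none of the motifs. A match is a run of letters and does not show that a factor binds there.

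Hspb6 (HSP20) is a small heat shock protein best known from muscle. At 3 months its scaled intensity was 3.73 to 10.8 (median 6.64) in control and 6.63 to 9.53 (median 8.39) in STZ retina. No STZ array lay above the highest control array, although 5 of 6 lay above the control median. The difference of 0.35 ± 0.17 did not pass the test (limma adjusted p = 0.0814, 95% confidence interval 0.0008 to 0.70), and it turned to -0.21 after quantile normalization and -0.27 after cyclic loess normalization.

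Hspb6 was called higher without 3M Control replicate 6 (0.50, limma adjusted p = 0.00717) and without 3M STZ replicate 4 (0.42, limma adjusted p = 0.0469). It was also called higher with arrays weighted by their quality (0.28, limma adjusted p = 0.0274). At 1 month it was 11.5 to 14.4 (median 12.5) in control and 10.2 to 13.1 (median 12.1) in STZ retina. With log2 SDs of 0.11 and 0.12 this was the tightest of the member probes at that time, and the difference was -0.09 ± 0.17 (limma adjusted p = 0.9999). The pattern most like that of Hspb6 was that of Rab11b, a small GTPase of recycling endosomes, at a distance of 0.02. Smooth muscle markers, of interest because Hspb6 is abundant in muscle, stood at summed scaled intensities of 2.83 to 3.16 in control and 2.42 to 3.09 in STZ retina at 3 months (Tagln, Cnn1 and Pdgfrb, with Cnn1 under the limit), and 0 of the 2 tested were called.

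**Figure D2:**
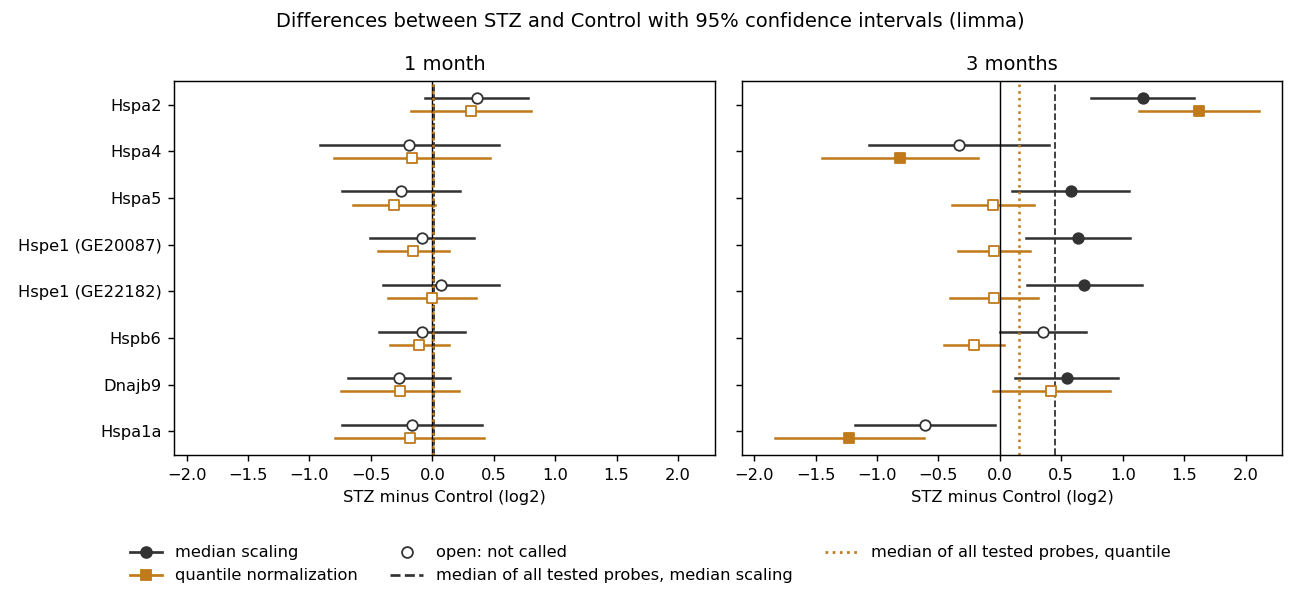
STZ minus control (log2) of the 7 member probes and Hspa1a at 1 month (left) and 3 months (right), with 95% confidence intervals from limma. Circles use median scaling and squares quantile normalization, filled symbols were called, and dashed and dotted lines are the medians of all tested probes. Hspa2 lies at 1.16 and 1.62 at 3 months, right of both medians, whereas Hspa5 and Hspe1 lie near 0 after quantile normalization.

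The shift of all probes with brightness therefore stood beside each member result. The 4 bright member probes (Hspa5, both of Hspe1 and Hspb6) had differences of 0.35 to 0.69 where the brightest class of probes had a median of 0.61, and -0.21 to -0.05 after quantile normalization where that class had 0.05. Hspa2 and Hspa4 were in the second class, with a median of 0.35, and their differences of 1.16 and -0.33 lay on either side of it. The part of the array distributions in these results was not tested beyond the alternatives given.

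**Figure D3:**
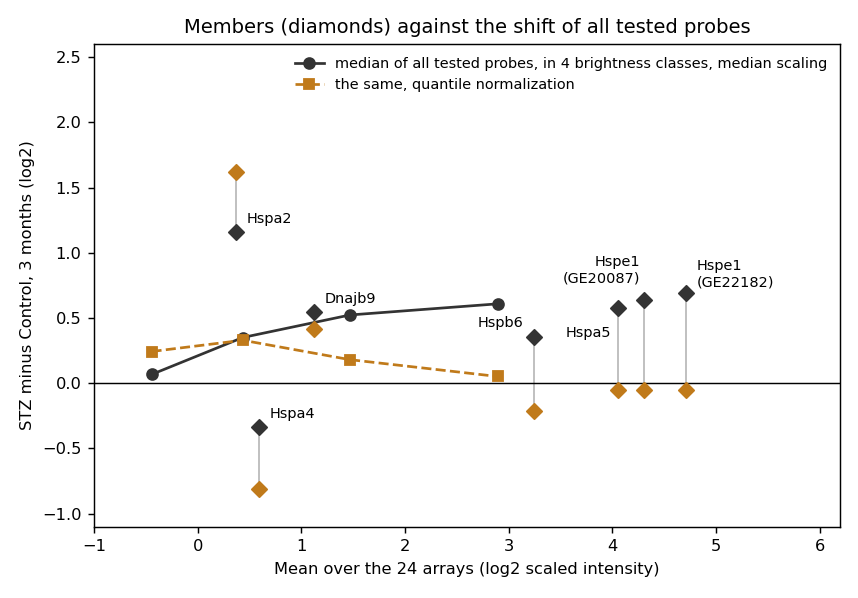
Difference between STZ and control at 3 months (log2) against mean brightness over the 24 arrays (log2 scaled intensity). Diamonds are the 7 member probes, dark with median scaling and orange after quantile normalization, joined by a grey line, and the curves are medians of all tested probes in 4 brightness classes. The dark curve climbs from 0.07 to 0.61 and the bright members lie near it, while Hspa2 lies above and Hspa4 below it under both scalings.

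Whether the difference between STZ and control was itself larger at 3 months than at 1 month was tested as an interaction. None of the 6 member genes passed, where 15.5% of all tested probes did. The values came closest for Dnajb9 (0.81 ± 0.29, limma adjusted p = 0.0524), Hspa2 (0.80 ± 0.29, limma adjusted p = 0.0546) and Hspa5 (0.83 ± 0.33, limma adjusted p = 0.0713), beside a median interaction of 0.44 over all probes. After quantile normalization the interaction of Hspa2 was 1.30 ± 0.34 and was called (limma adjusted p = 0.0166), as were 9.50% of all probes in that direction, that of Dnajb9 was 0.68 and that of Hspa5 0.26. With single arrays left out, Hspa2 was called without 3M Control replicate 4 (0.84), 3M Control replicate 6 (0.91) or 3M STZ replicate 4 (0.93). Dnajb9 was called without 1M Control replicate 5 (0.90), 3M Control replicate 5 (0.87), 3M Control replicate 6 (0.94) or 3M STZ replicate 4 (0.92). Hspa5 was called without 3M Control replicate 6 (0.97) or 3M STZ replicate 4 (0.98), and Hspb6 (0.58) and GE20087 of Hspe1 (0.85) without 3M Control replicate 6.

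The wider chaperone and stress network was read from 9 lists of other genes, of which 74 had a tested probe. At 3 months 51 of the 74 were higher, 0 were lower and 23 did not pass the test, with a median difference of 0.57. After quantile normalization 12 were higher and 5 lower, and the median was 0.07. At 1 month none of the 74 passed the test in limma. These counts stand beside 56.0% of all named genes called higher at 3 months. The share of the lists (68.9%) and that of the members (66.7%) are read against that percentage. In the interaction 20 of the 74 were called higher and 0 lower, where 15.5% of all probes were called in either direction. After quantile normalization 5 were called higher in the interaction, where 9.50% of all probes were.

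In the list of ER folding and the unfolded protein response, the setting of Hspa5 and Dnajb9, 11 of 22 tested genes were higher, 0 were lower and 11 did not pass, with a median of 0.43. Pdia4, a disulfide isomerase, had the largest called difference (1.14 ± 0.23, limma adjusted p = 0.000734) and Canx, the membrane lectin chaperone calnexin, the smallest (0.45 ± 0.18, limma adjusted p = 0.0383). Both were also called after quantile normalization (1.59 and 0.83). Uggt1, the glucosyltransferase that returns misfolded glycoproteins to calnexin, was called only after quantile normalization (0.47). With median scaling Uggt1 stood at 0.14 (limma adjusted p = 0.319). The interaction was called for Eif2s1, Pdia3, Pdia4, Ppp1r15a, Erp29 and Ppib (0.68 to 1.02). After quantile normalization it was called for Pdia4 (1.49) and Canx (1.07) only. By contrast Calr (-0.10) and Herpud1 (-0.05) did not pass the test, and Asns (-0.89) and Selenos (-0.60) were lower after quantile normalization.

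The list of heat shock factors and stress transcription had 6 tested genes, and all 6 were higher at 3 months, with a median of 0.92. Hmox1, the heme oxygenase induced by oxidative stress, had the largest difference (2.63 ± 0.36, limma adjusted p = 4e-05) and Hsf2, a heat shock factor, the smallest (0.41 ± 0.17, limma adjusted p = 0.0428). Hmox1 (2.96), Gadd45a (0.91), Jun (0.73) and Hsf2 (0.88) were also called after quantile normalization. The interaction was called for Hmox1 (2.25), Gadd45a (1.19) and Jun (0.88). After quantile normalization it was called for Hmox1 (2.68), Gadd45a (0.63) and Hsf2 (1.04), but not for Jun (0.55, limma adjusted p = 0.251).

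Proteasome genes, which degrade what chaperones fail to refold, were higher for 17 of 21 tested genes (81.0%) and lower for 0, with a median difference of 0.69. Of the 21 probes, 17 were in the brightest class, and 15 of those 17 were called higher, where 76.3% of all probes of that class were. Psme1, an activator subunit induced by interferon, had the largest difference (1.06 ± 0.20, limma adjusted p = 0.00045) and Psma6, a core subunit, the smallest (0.48 ± 0.20, limma adjusted p = 0.0457), which turned to -0.23 after quantile normalization. After quantile normalization the median was 0.04, and the 4 genes still called were Psmb8 (0.89), Psmb9 (0.46), Psme1 (0.47) and Psme2 (0.34). All 4 encode parts of the interferon-inducible immunoproteasome or its activator, a grouping that was read from these calls and was not tested. The interaction was called for Psmc2, Psmc4, Psmc5, Psmd4, Psme1 and Psme2 (0.63 to 0.89), but for 0 of the 21 genes after quantile normalization.

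Co-chaperones of the HSP70 and HSP90 machines were next. Of HSP90 family genes and co-chaperones, 6 of 8 were higher at 3 months, from Grpel1 (0.49) to Ppp5c (0.82), 0 were called after quantile normalization, and Stip1, the adaptor between HSP70 and HSP90, stood at 0.05. The interaction was called for Bag6 (0.72) and Cdc37 (0.88), but for neither after quantile normalization (0.17 and 0.45). Of J-domain co-chaperones, 3 of 4 were higher, from Dnajc3 (0.49) to Dnajc2 (0.64), and the other, Dnajc21, was lower after quantile normalization (-0.30).

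Of mitochondrial proteostasis genes, 3 of 6 were higher at 3 months, from Timm17a (0.51) to Phb1 (0.89). Their interaction was called for Phb1 (1.03) and Timm23 (0.96), but for neither after quantile normalization (0.60 and 0.45). The cytosolic chaperonin subunits Cct3 (0.57) and Tcp1 (0.58) were both higher, and turned to -0.12 and -0.20, not called, after quantile normalization. Of 2 tested HSP70 and HSP110 family genes, Hspa13, a microsomal HSP70, was higher by 0.62 and not called after quantile normalization (0.16). The other was Hspa1a, described above, at -0.61 (not called) and at -1.23 after quantile normalization (called lower). Among small heat shock proteins, Cryab (1.13) and Hspb3 (0.38) were higher and Hspb8 (-0.52) did not pass the test. After quantile normalization Hspb3 was called higher (0.65) and Hspb8 lower (-1.02), and Cryab stood at 0.17 and was not called. The interaction was called for Cryab (1.52), but not after quantile normalization (0.74, limma adjusted p = 0.401). Cryab is also a lens crystallin. Of 3 lens markers, described next, 2 were higher at 3 months and 1 was called in the interaction.

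**Figure D4:**
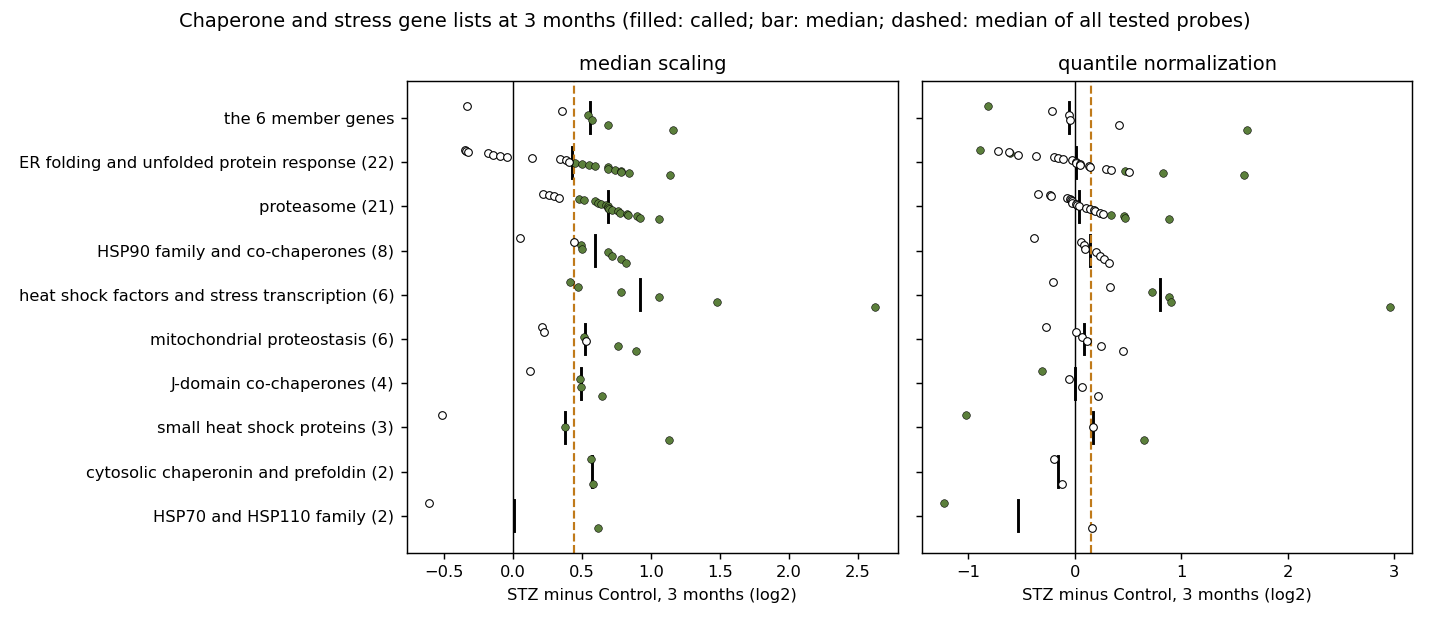
Difference between STZ and control at 3 months (log2) of the 6 member genes and of each tested gene of 9 lists, with median scaling (left) and quantile normalization (right). Filled points were called, bars are list medians and the dashed line is the median of all tested probes. With median scaling 51 of 74 list genes are filled, all to the right of 0, and after quantile normalization 17 are, 5 of them to the left of 0.

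Lists of markers of other cell types had unequal shares called at 3 months, beside 50.5% of all tested probes called higher. At 3 months all 4 tested markers of reactive glia (Gfap, Vim, Cd44 and Lcn2) were higher in STZ retina. Their summed scaled intensity was 14.8 to 37.4 in control and 57.7 to 83.3 in STZ retina, with no overlap. Vim made up most of that sum (8.78 to 31.6 in control and 44.6 to 67.2 in STZ retina). Vim and Cd44 separated completely, as did 10.2% of all probes, whereas Gfap and Lcn2 overlapped between the groups. All 4 were called after quantile normalization as well. Of lens markers 2 of 3 were higher, with sums of 3.04 to 8.44 in control and 3.10 to 122 in STZ retina, so that the lowest STZ array lay within the control range. Of retinal pigment epithelium markers 0 of 2 were called, although a single 3 month STZ array reached a sum of 97.7. Of rod markers 1 of 4 was higher, of Mueller glia 1 of 3 and of ganglion cells 1 of 3. Of microglia markers 1 of 2 was higher, of erythrocytes 1 of 2 and of endothelium 2 of 2. The part of these cell types in the results of the members was not tested.

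**Figure D5:**
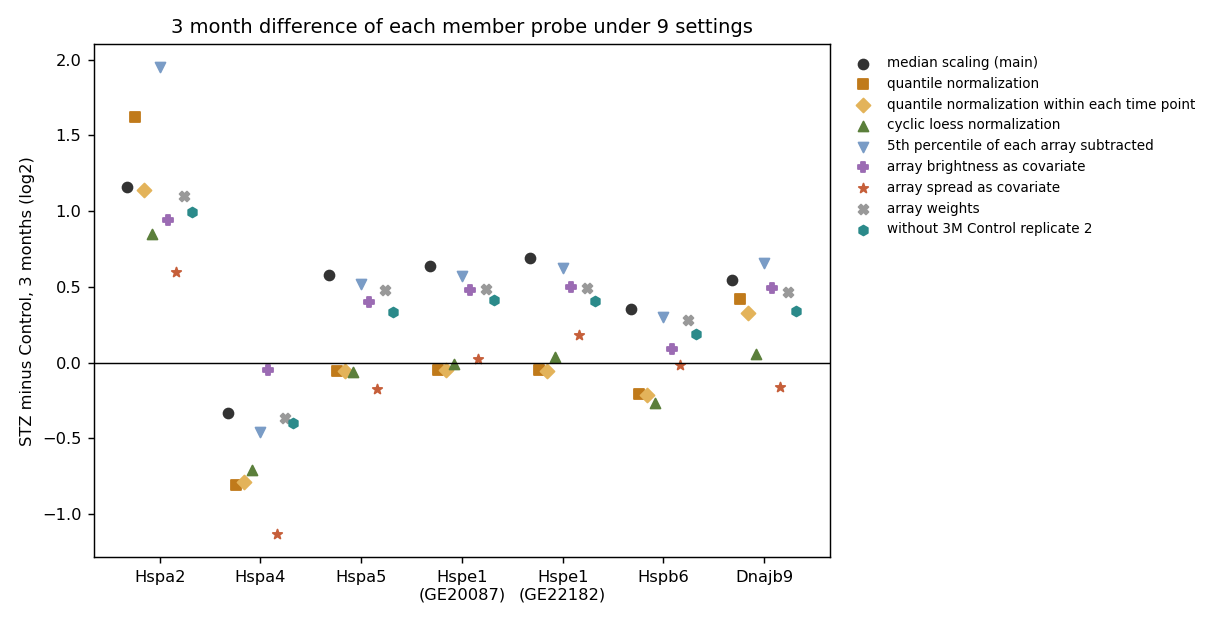
Difference between STZ and control at 3 months (log2) of each member probe under 9 settings, with 1 symbol per setting. Hspa2 stays above 0 under all 9 settings shown (0.60 to 1.95), Hspa4 stays below 0, and the other probes cross 0 under at least 1 setting.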

How the data were processed

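Rat retinal RNA was labeled and read on CodeLink arrays. According to the methods, spots were read with the CodeLink software, which excluded defective spots, subtracted the background and normalized within each array. The authors deposited the background-subtracted intensity of each probe and the same value divided by a constant near the array median, both linear. Of 33911 probes, 62 are bacterial. RefSeq accessions of the files were matched to current symbols, which named 4675 of the 5469 probes with such an accession (4013 genes).

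The deposited intensity was divided by its array's median over rat probes, raised to 0.01 where lower, and log2 transformed. The test was limited to the 22025 rat probes with a median scaled intensity above 0.554, which is percentile 35 of all probes. The number of arrays limits the precision. Groups were taken from the sample titles. A single limma model (version 3.58.1, R 4.3.3) held the 4 groups, with calls made at 1.2-fold and an adjusted p (Benjamini-Hochberg) under 0.05. Simulated data were used to test the script. The methods' test (unequal variances, p under 0.01, 1.2-fold) and other scalings, filters, floors, covariates, weights and left-out arrays were alternatives. All 7 member probes passed the filter. A gene with several probes was counted through the brightest.

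The genes named from the lists are those with the largest and smallest called difference at 3 months and those called in the interaction. Genes called after quantile normalization alone, and those given as not passing, were chosen after their values were seen. The members and lists were chosen with earlier results of these data known. Promoter windows came from RefSeq (GRCr8) and were available for 9 of the 10 members. P-values measure the spread between arrays. No source used here ties each array to its own rat. The study's animal table lists fewer rats than arrays for the 1 month control group, so some arrays of that group may share a rat. A figure caption of the paper gives fewer animals than arrays for control and STZ groups without naming a time, so this doubt may reach the other groups. No pair of arrays was identical. Values of 1 marker gene, and marker sums that include it, are not reported here.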

Additional observations from a re-analysis of the deposited data

Results flagged for a closer look

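In 3 of the 32 groups of 6 arrays examined for the members and Hspa1a, 1 array lay far from the others, judged on the log2 scale by its gap to the nearest array over the range of the group against Dixon's critical value, and chance alone gives about 5% of groups. For Hspa2, 1M Control replicate 5 was at a scaled intensity of 2.68, where the nearest control array was at 1.61 (gap over range 0.735 on the log2 scale). Without it, the 1 month difference of Hspa2 was 0.50 and was not called. For Hspa2 at 3 months, 3M STZ replicate 4 was at 0.860, where the nearest STZ array was at 1.29 (0.635 on the log2 scale, 0.559 on the linear scale). For probe GE22182 of Hspe1, 3M Control replicate 2 was at 8.05, where the nearest control array was at 20.7 (0.699 on the log2 scale, 0.549 on the linear scale). On the linear scale both of these 3 month gaps lay under the critical value. The causes were not tested.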

How the results depend on the processing

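At 3 months, 4 member genes were called, and this count was 2 after quantile normalization, 1 with quantile normalization within each time point, cyclic loess normalization, the methods' test with or without adjustment, separate models of the times or array brightness as a covariate, and 0 with array spread as a covariate. It was 3 with the 5th percentile subtracted or no filter on dim probes (Hspa5 not called, limma adjusted p = 0.0926 and 0.0513) or with detection on all 24 arrays, and 5 with array weights (Hspb6 called). It was 2 to 5 with 1 array left out (2 without 3M Control replicate 2, 3M STZ replicate 5 or 3M STZ replicate 6, and 5 without 3M Control replicate 6 or 3M STZ replicate 4). In the interaction 0 were called, but 1 after quantile normalization, after subtraction of the 5th percentile or with detection on all 24 arrays (which Hspa2 and Hspa4 did not pass), 3 with array weights, and 0 to 4 with 1 array left out (4 without 3M Control replicate 6, 3 without 3M STZ replicate 4). At 1 month 0 were called under every alternative run. The sign of the 3 month difference turned for Hspa5 (-0.0535, -0.0563 and -0.0641), Hspe1 GE20087 (-0.0480, -0.0466 and -0.00801) and Hspb6 (-0.21, -0.21 and -0.27) after quantile, within-time quantile and cyclic loess normalization, and for Hspe1 GE22182 (-0.0485 and -0.0528) after the quantile normalizations. With array spread as a covariate it turned for Hspa5 (-0.18), Hspb6 (-0.0167) and Dnajb9 (-0.16). At 1 month Hspe1 GE22182 turned (-0.00487, -0.00556, and -0.0172 with array brightness as a covariate), and it ran from -0.0253 to 0.15 with 1 array left out. In the interaction, GE22182 (-0.0436 and -0.0473) and Hspb6 (-0.10, -0.11 and -0.16) turned in the same order, as did Hspa4 with array weights (0.41) or brightness as a covariate (0.0041). With 1 array left out, Hspa4 ran from -0.39 to 0.10 at 1 month and from -0.43 to 0.0559 in the interaction. The causes were not tested. Replicate numbers of STZ and control arrays did not pair the samples (correlation of same-numbered deviations -0.24 to 0.25, 5 of 12 pairs over 0.1), and with the replicate number as a block 4, 0 and 0 members were called at 3 months, at 1 month and in the interaction. Of 351 other values of members, 294 kept their direction and their side of the threshold.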
